A study of Mus musculus with 18 samples.

Results

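Genes of DNA replication and mitosis were followed in mouse embryonic stem cells before and after a protocol of pancreatic differentiation. The members, 35 of the 54532 genes in the deposited table, were taken by their symbols, and each symbol matched 1 protein-coding gene. All 35 passed the filter on low values, and the smallest read number behind any member in any library was 275. RNA sequencing was made on polyadenylated RNA of ES-E14TG2a, a stem cell line derived from mouse blastocysts. The 18 libraries fall into 6 groups of 3 replicates: Ctrlv2 cells and 2 further lines, labelled Arf-B and Arf-C, were each sampled on day 0 and day 8. All groups carry the same genotype label, wild type, and the sources used here do not say what was done to derive either Arf line. Cells were grown with leukaemia inhibitory factor, then plated on Matrigel with activin A at 20 ng/mL from day 0, and given retinoic acid (written as 5 μM/ml in the labels) with FGF10 at 10 ng/mL from day 4 until harvest on day 8. By its title the series concerns p19Arf, a product of Cdkn2a. Nothing in the labels says that replicates are separate cultures, so p-values measure the spread between these samples, which may be technical.

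Cells copy their DNA once per cycle. In G1 the licensing factors Cdc6 and Cdt1 load the Mcm2-7 helicase onto origins, Cdc45 and the GINS complex then turn it into the active helicase, and the sliding clamp Pcna holds polymerases on the template while ribonucleotide reductase, thymidylate synthase and thymidine kinase supply nucleotides. Entry into mitosis is driven by cyclin A2 and the B cyclins with Cdk1, by Plk1 and by the Aurora kinases, and exit by the anaphase-promoting complex with its activator Cdc20 and its ubiquitin-conjugating enzyme Ube2c. Replication genes are classically controlled through E2F sites, and mitotic genes through CHR elements and through CCAAT boxes bound by NF-Y. At CHR elements the MuvB complex acts either as part of DREAM or with B-Myb (Mybl2) and FoxM1. Mouse embryonic stem cells are known for a short cycle with brief gap phases, which lengthens as they differentiate.

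Promoter sequence was matched from RefSeq (build GRCm38.p6, 250 bases before to 50 after the start) for 29 of the 35 members, which have 30 promoters because Mcm7 has a pair; Kif20a, Mcm4, Gins2, Ccna2, Foxm1 and Aurkb were not matched. Motifs were searched on both strands: CHR as TTTGAA or TTCGAA, E2F as TTTGGCGC, TTTCGCGC, TTTCCCGC or TTTGCCGC, and NF-Y as CCAAT. Overlapping matches were counted separately. A CHR was found in 14 of 30 member promoters (46.7%), against 19.2% of all 32851 promoters in the table and 13.7% of the 14106 promoters of tested genes. An E2F motif was found in 7 member promoters (23.3%), against 2.26% of all and 3.85% of those of tested genes. CCAAT stood in 23 (76.7%), against 37.4% and 37.8%. The promoters of 5 members are shown because they carry the arrangements counted here, with the CHR, E2F and CCAAT letters (or their reverse complements) in capitals. Ccnb2 (chr9:70421555-70421804, minus strand), Top2a (chr11:99024190-99024439, minus strand) and Mki67 (chr7:135716380-135716629, minus strand) hold CHR and CCAAT, and Mcm5 (chr8:75109259-75109508, plus strand) and Mcm6 (chr1:128359706-128359955, minus strand) hold E2F motifs. Each is the stretch upstream of the RefSeq start, 5′ to 3′ on the gene's strand.
Ccnb2: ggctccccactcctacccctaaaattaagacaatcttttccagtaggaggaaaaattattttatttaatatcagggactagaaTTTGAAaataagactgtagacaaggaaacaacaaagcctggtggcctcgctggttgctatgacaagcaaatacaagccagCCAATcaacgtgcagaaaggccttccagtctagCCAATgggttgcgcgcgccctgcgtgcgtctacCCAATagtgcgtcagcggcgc
Top2a: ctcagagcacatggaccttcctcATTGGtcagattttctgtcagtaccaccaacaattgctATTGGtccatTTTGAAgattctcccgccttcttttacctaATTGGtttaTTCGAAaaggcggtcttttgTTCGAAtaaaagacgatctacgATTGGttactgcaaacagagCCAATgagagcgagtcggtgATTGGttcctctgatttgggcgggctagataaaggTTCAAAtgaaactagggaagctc
Mki67: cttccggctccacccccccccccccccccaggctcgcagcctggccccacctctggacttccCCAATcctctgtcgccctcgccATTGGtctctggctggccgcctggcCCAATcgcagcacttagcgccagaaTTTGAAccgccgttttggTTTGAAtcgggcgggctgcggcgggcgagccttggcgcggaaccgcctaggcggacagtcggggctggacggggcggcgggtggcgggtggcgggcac
Mcm5: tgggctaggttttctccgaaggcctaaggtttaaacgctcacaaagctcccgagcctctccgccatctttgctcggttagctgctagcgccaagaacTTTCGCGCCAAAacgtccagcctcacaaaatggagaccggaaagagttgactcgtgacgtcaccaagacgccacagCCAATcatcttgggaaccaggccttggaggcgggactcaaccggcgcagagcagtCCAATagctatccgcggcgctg
Mcm6: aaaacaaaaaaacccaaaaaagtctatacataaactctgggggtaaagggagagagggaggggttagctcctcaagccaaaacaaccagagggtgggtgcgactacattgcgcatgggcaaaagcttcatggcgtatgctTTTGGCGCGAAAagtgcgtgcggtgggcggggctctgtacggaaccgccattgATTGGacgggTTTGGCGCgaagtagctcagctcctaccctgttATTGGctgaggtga

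In the Mcm5 promoter the E2F letters of both strands overlap in 1 run, and the Mcm6 promoter has such a run and another E2F match nearer the start. The CHR, CCAAT and E2F matches describe letters in these windows, not occupied sites. The 10 members with a CHR and at least 2 CCAAT had a median day change of -0.88 (log2) in Ctrlv2 and ranged from -1.46 to 0.70. The 7 with an E2F motif had a median of -0.93, from -1.58 to -0.35, and the 14 with neither arrangement a median of -1.15, from -3.04 to 0.38. Mcm7 and Cdk1 are in both of the first classes, and the 3 ranges overlap widely.

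Reads on genes numbered 22945409 to 33311220 per library at day 0 and 10432590 to 22222425 at day 8, so every day 0 library was deeper. Cdkn2a was at 1.68 to 3.36 FPKM (read fragments scaled to gene length and a library size, as deposited) in the day 0 libraries of all 3 lines. At day 8 Cdkn2a was at 32.0 to 34.3 in Ctrlv2, 40.1 to 44.7 in Arf-B and 42.6 to 46.3 in Arf-C. Every Arf library thus lay above every Ctrlv2 library at day 8. These values are per gene and do not tell the p19Arf transcript apart from other transcripts of Cdkn2a. The cell type label was met by its markers: 5 embryonic stem cell genes summed to 1842 to 1926 FPKM in Ctrlv2 at day 0, 1472 to 1606 in Arf-B and 1621 to 1665 in Arf-C. On day 8 the sum was 40.7 to 47.2 in Ctrlv2, 142 to 197 in Arf-B and 117 to 219 in Arf-C. Definitive endoderm markers (5 genes) summed to 4.33 to 7.20 FPKM and pancreas and foregut markers (5 genes) to 5.10 to 7.30 at day 8, both low beside the stem cell sum of day 0. At day 8, mesoderm and mesenchyme markers (5 genes) summed to 19.9 to 29.8 in Ctrlv2 and to 8.21 to 9.46 in the Arf lines, trophoblast markers (5 genes) to 8.37 to 12.6 and neural markers (5 genes) to 13.3 to 22.3 over all lines. Primitive and parietal endoderm markers (6 genes) summed to 150 to 211 in Ctrlv2 at day 8, and to 33.4 to 37.2 in Arf-B and 37.8 to 42.1 in Arf-C. Most of the Ctrlv2 sum was Lama1 and Col4a1, at means of 72.5 and 72.9. Of these lists, Mesp1 in Ctrlv2 and Neurog2 in Arf-C were at 0 in all day 8 libraries. In bulk RNA, fewer cycling cells and less of a transcript per cell cannot be told apart. For 9 members (Mcm7, Gins2, Cdc45, Ccna2, Top2a, Cdc20, Kif20a, Mybl2 and Espl1) the gene overlaps another that reaches 1 FPKM, and reads there cannot be assigned with certainty, since the sources used here do not give the strand setting of the counting.

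Some members scattered within 1 group. Within the Ctrlv2 day 0 group, replicate 1 was low and replicate 2 high in long transcripts of low GC content: Mki67 was at 7.01, 22.9 and 12.7 FPKM in replicates 1 to 3, Cenpe at 2.92, 11.6 and 5.64, Cenpf at 2.23, 7.56 and 3.82, and Kif11 at 29.3, 45.3 and 38.5. The other 5 groups were much tighter for Mki67, at 20.2 to 29.8 FPKM over 15 libraries. As a description across the 35 members, the deviation of replicate 1 from its group mean had a Spearman rho of 0.65 with GC content and that of replicate 2 a rho of -0.61. Over 7493 genes the same values were 0.54 and -0.50. Results on these members are therefore given also with smooth terms of GC content and length removed from each library, an alternative chosen after seeing the data.

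**Figure D1:**
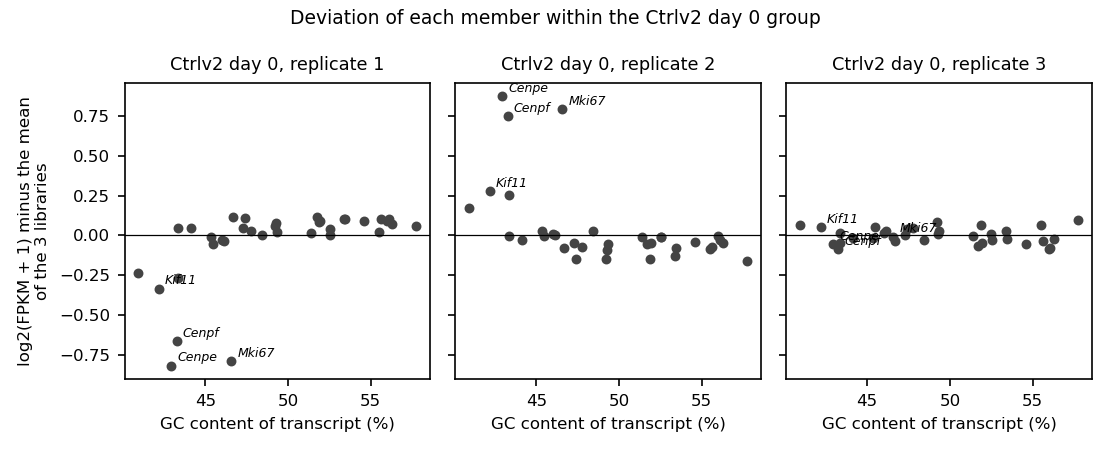
Deviation of each of the 35 members from the mean of the 3 Ctrlv2 day 0 libraries (y axis, log2 of FPKM + 1) against the GC content of the gene's longest transcript in percent (x axis), 1 panel per library. Mki67, Cenpe, Cenpf and Kif11 lie far below 0 in replicate 1 and far above it in replicate 2, while most members lie near 0 in all 3.

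Replication and mitosis genes fell together between day 0 and day 8 in each line. With limma on log2(FPKM + 1), adjusted by Benjamini-Hochberg over 17200 genes, 31 of 35 members were lower in Ctrlv2 at day 8 and 2 were higher, where 34.4% of all tested genes were called lower and 33.9% higher. In Arf-B 32 members were lower (33.8% of all genes) and 0 higher (32.9%), with 0 higher at an unadjusted p under 0.05 and 0 by limma-voom. In Arf-C 32 were lower (33.8%) and 1 higher (32.8%). The median member changed by -1.01, -0.93 and -0.91 on the log2 scale in Ctrlv2, Arf-B and Arf-C, beside medians of -0.01, -0.02 and -0.02 over all tested genes. Falls of 2-fold or more were seen for 19, 13 and 11 members.

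**Figure D2:**
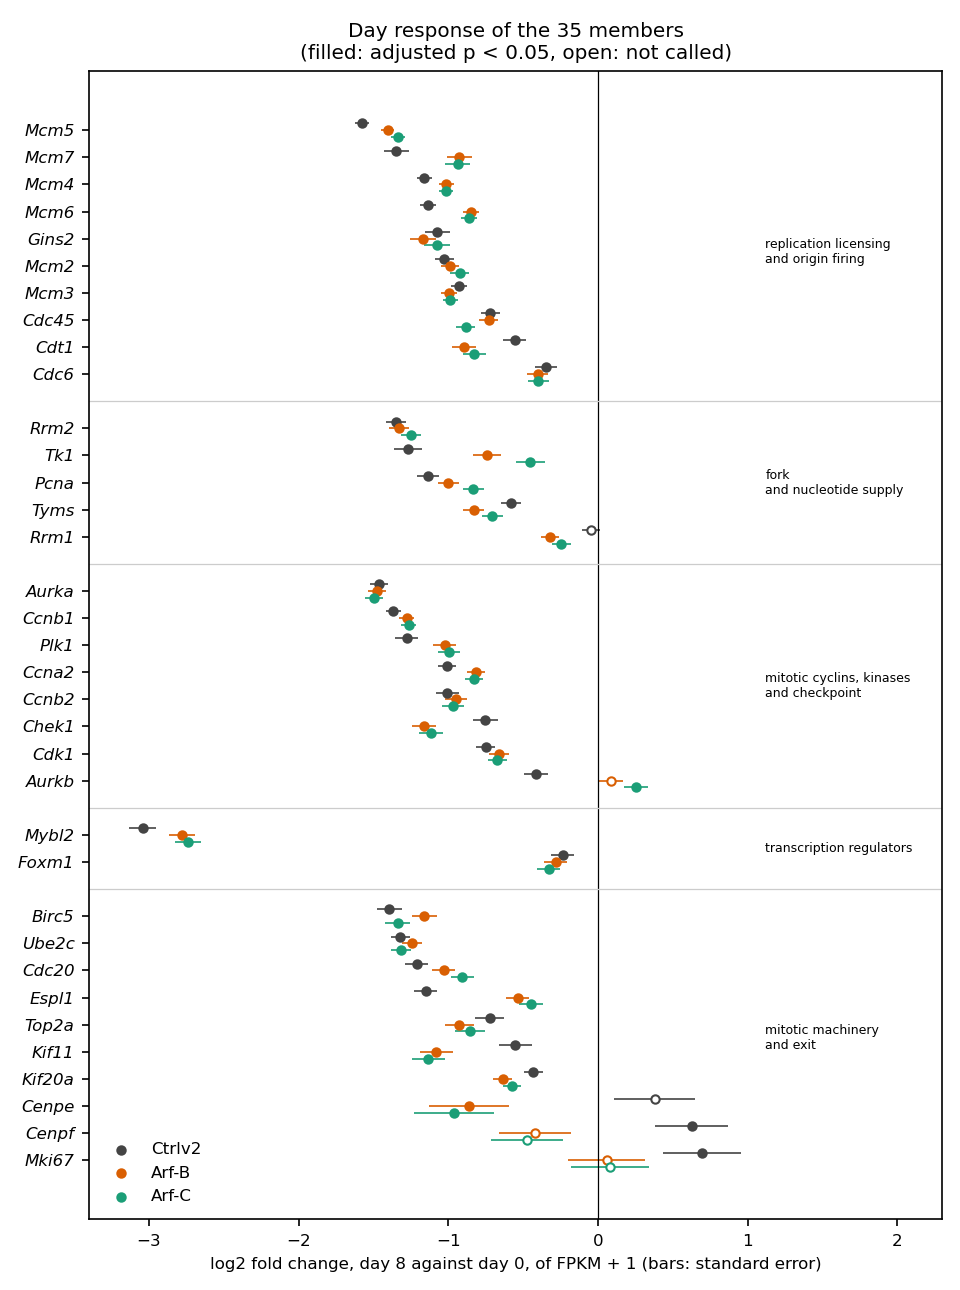
Log2 fold change of FPKM + 1 from day 0 to day 8 (x axis, bars are standard errors) for each of the 35 members (y axis, grouped by role) in Ctrlv2, Arf-B and Arf-C; filled points passed an adjusted p of 0.05. Most points lie between -0.4 and -1.6, Mybl2 lies near -3, and Mki67, Cenpf, Cenpe, Rrm1 and Aurkb lie nearest to or above 0.

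Among the licensing and origin-firing genes, all 10 were lower at day 8 in each line, with medians of -1.05, -0.96 and -0.93. Mcm5, a subunit of the hexameric helicase, fell most. It was at 163, 148 and 148 FPKM in the Ctrlv2 day 0 libraries and at 49.9, 50.3 and 51.5 at day 8, a log2 change of -1.58 (SE 0.046, adjusted p = 7.25e-14). The groups do not overlap, and Arf-B (-1.41) and Arf-C (-1.34) changed alike in direction. Cdc6, the loading factor, changed least: it was at 16.4, 14.1 and 16.8 FPKM in Ctrlv2 at day 0 and at 12.1, 12.4 and 12.0 at day 8 (log2 -0.35, SE 0.072, adjusted p = 0.000439). Its day 0 libraries all lay above its day 8 libraries, by a small step. Mcm2, Mcm3, Mcm4, Mcm6, Mcm7 and Gins2, a GINS subunit, changed by -0.93 to -1.35 in Ctrlv2. Cdt1, the partner of Cdc6 in loading, and Cdc45, the helicase co-activator, changed by -0.56 and -0.72.

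Of the fork and nucleotide genes, 4 of 5 were lower in Ctrlv2 and 5 of 5 in each Arf line. Ribonucleotide reductase, which makes deoxynucleotides, has a large subunit, Rrm1, and a cycle-regulated small subunit, Rrm2, and they parted. Rrm2 was at 105, 108 and 108 FPKM at day 0 in Ctrlv2 and at 46.6, 39.7 and 38.1 at day 8 (log2 -1.35, SE 0.066, adjusted p = 3.13e-11). Rrm1 was at 20.3, 19.6 and 19 at day 0 and at 20.2, 18.3 and 18.5 at day 8, with overlapping libraries (log2 -0.05, adjusted p = 0.529). In the Arf lines Rrm1 fell, with log2 changes of -0.32 (adjusted p = 0.000262) in Arf-B and -0.24 (adjusted p = 0.00256) in Arf-C, calls that were lost when libraries were scaled to the same FPKM sum (adjusted p = 0.163 and 0.428). With GC and length terms removed, Rrm1 was lower in Ctrlv2 too (log2 -0.25, adjusted p = 0.0107). Pcna, the clamp, Tk1, the thymidine kinase of the salvage route, and Tyms, the synthase that makes thymidylate, changed by -1.14, -1.27 and -0.58 in Ctrlv2.

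Mitotic cyclins, kinases and the checkpoint kinase Chek1 were all lower at day 8 in Ctrlv2 (8 of 8), and 7 of 8 in each Arf line. Aurka, the kinase of centrosome maturation, fell most, from 50.6, 49.6 and 49.9 FPKM to 18.6, 17.9 and 16.2 in Ctrlv2 (log2 -1.46, SE 0.059, adjusted p = 3.63e-12). Its change was -1.48 in Arf-B and -1.50 in Arf-C, and day 0 and day 8 libraries are far apart in every line. The cyclin genes Ccnb1, Ccnb2 and Ccna2 changed by -1.37, -1.01 and -1.01 in Ctrlv2, Plk1, the kinase that acts through the whole of mitosis, by -1.28, Cdk1, the partner of the cyclins, by -0.75, and Chek1 by -0.75.

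Aurkb, the kinase of the chromosomal passenger complex, went another way in the Arf lines. It was at 24.1, 23.9 and 24.2 FPKM at day 0 and at 19, 17 and 17.6 at day 8 in Ctrlv2 (log2 -0.41, adjusted p = 0.000245). In Arf-B it was at 21.2, 21.3 and 24.4 and then at 24.6, 24.3 and 22.3, with overlapping libraries (log2 0.09, adjusted p = 0.362). In Arf-C it went from 20.0, 22.7 and 18.7 to 25.5, 22.0 and 26.2 (log2 0.25, adjusted p = 0.0107), again with overlap. That rise was lost without the third Arf-C library of day 0 (adjusted p = 0.0628) or of day 8 (0.0532).

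The 2 transcription regulators moved by very different amounts. Mybl2, which encodes B-Myb and lies on chromosome 2 from 163054687 to 163084688 (mm10), was at 263, 242 and 246 FPKM in Ctrlv2 at day 0 and at 29.3, 31.0 and 28.1 at day 8. That is 250 ± 11.3 against 29.5 ± 1.48 (SD, n = 3), or 8.48-fold, the largest change of any member (log2 -3.04, SE 0.089, adjusted p = 8.21e-14). Arf-B went from 249, 236 and 251 to 32.1, 32.8 and 40.3 (log2 -2.78, adjusted p = 3.19e-13), and Arf-C from 261, 254 and 255 to 32.8, 37.8 and 42.7 (log2 -2.74, adjusted p = 4.14e-13). Foxm1, the forkhead factor of the same program, was at 19, 17.2 and 17.1 FPKM at day 0 and at 15.8, 14.8 and 14.2 at day 8 in Ctrlv2 (log2 -0.24, SE 0.077, adjusted p = 0.0129). Foxm1 changed by -0.28 and -0.33 in the Arf lines. All 3 Foxm1 calls were lost under scaling to the same sum (adjusted p = 0.33, 0.564 and 0.193), and the Ctrlv2 call also without day 0 replicate 1 (0.0611) or day 8 replicate 3 (0.0533). In mean FPKM of Ctrlv2, Mybl2 at day 0 was as high as Pcna, at 252, and at day 8 it was well below Pcna, at 114.

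**Figure D3:**
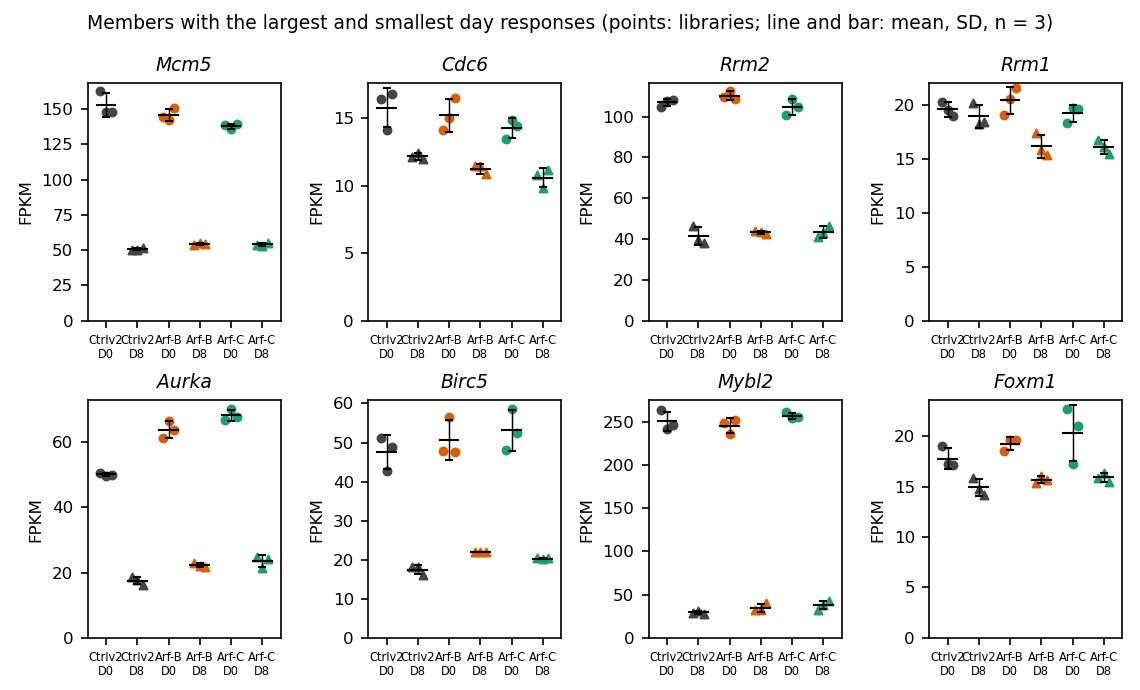
FPKM (y axis, from 0) in each of the 18 libraries (points), by line and day (x axis, D0 and D8 for days 0 and 8), with the mean and SD of 3 libraries. Mcm5, Rrm2, Aurka, Mybl2 and Birc5 had the largest day change of their roles in Ctrlv2. Cdc6, Rrm1 and Foxm1 had the smallest of theirs. Mybl2 drops from about 250 to about 30 FPKM, while Rrm1, Foxm1 and Cdc6 move little.

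Of the 10 genes of mitotic machinery and exit, 7 were lower and 2 higher in Ctrlv2, and 8 were lower in each Arf line. Birc5 (survivin, of the chromosomal passenger complex) fell from 51.2, 42.8 and 48.8 FPKM to 18.1, 18.1 and 16.2 in Ctrlv2 (log2 -1.39, SE 0.083, adjusted p = 3.54e-10). Ube2c, Cdc20 and Espl1, the separase that cuts cohesin, changed by -1.32, -1.21 and -1.15, and Top2a (topoisomerase II alpha), Kif11 (the motor that parts spindle poles) and Kif20a (a cytokinesis motor) by -0.72, -0.55 and -0.43. Mki67, the proliferation marker that coats mitotic chromosomes, was higher at day 8 in Ctrlv2 (log2 0.70, SE 0.26, adjusted p = 0.0266), with 22.5, 20.2 and 21.5 FPKM at day 8. Those values overlap the day 0 libraries because replicate 2 of day 0 was at 22.9. Cenpf, a kinetochore protein, was called higher too (log2 0.63, adjusted p = 0.0318), at 8.11, 6.09 and 6.59 FPKM at day 8 against the day 0 values given above. Neither Mki67 nor Cenpf was called without day 0 replicate 1, the low one (log2 0.30 and 0.30, adjusted p = 0.151 and 0.192), without day 0 replicate 3 (0.0572 and 0.0818), without day 8 replicate 1 (0.0657 and 0.107) or without day 8 replicate 3 (0.0544 and 0.0524), nor with the GC and length terms removed (log2 0.46 and 0.31, adjusted p = 0.0826 and 0.167). Cenpe, the kinetochore motor, was at 8.61, 7.17 and 8.19 FPKM at day 8 in Ctrlv2 and was not called (log2 0.38, adjusted p = 0.226), except without day 0 replicate 2, the high one (log2 0.81, adjusted p = 0.000368). In the Arf lines Mki67 was not called (log2 0.06 and 0.08, and -0.11 in each with GC and length terms removed), and Cenpe fell, with log2 changes of -0.86 (adjusted p = 0.0104) and -0.96 (0.00525); scaling to the same sum took the first of these adjusted p-values to 0.0531.

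Genes of the same pathways that are not members were counted from lists that exclude the members. Of 17 origin recognition and firing genes 14, 14 and 15 were lower at day 8 in Ctrlv2, Arf-B and Arf-C, of 24 polymerase, clamp loader and fork genes 20 in each line, of 22 kinetochore and checkpoint genes 17, 21 and 21, of 22 spindle motor, cytokinesis and condensin genes 18 in each, and of 19 entry and exit regulators 13, 17 and 18. Their medians in Ctrlv2 were -0.66, -0.75, -0.54, -0.60 and -0.66, each nearer 0 than the members' median. Genes commonly taken as steady (12 tested) had a median of -0.33, with 7 called lower and 2 higher. Mcm10, a replication initiation factor, went from 33.6 ± 1.45 to 10.8 ± 0.417 FPKM (SD, n = 3) in Ctrlv2 (log2 -1.55, adjusted p = 2.18e-13), and Pttg1, securin, from 23.9 ± 2.48 to 5.28 ± 0.341 (log2 -1.99, adjusted p = 4.85e-10). The stem cell genes fell much further with time: Pou5f1 and Nanog changed by -7.19 and -7.47 in Ctrlv2, by -4.31 and -2.93 in Arf-B and by -4.69 and -3.33 in Arf-C.

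At day 0 the Arf lines had more RNA of mitotic genes such as Plk1, Ube2c and Kif11 than Ctrlv2, and less of Pcna and Tk1. Of 35 members, 12 were higher and 5 lower in Arf-B, where 19.1% and 20.0% of all genes were called, and 12 were higher and 7 lower in Arf-C, where the shares were 21.2% and 21.5%. The 5 and 7 lower members are no larger a share than among all genes, while the 12 higher members are a larger share. Both comparisons use the same 3 Ctrlv2 libraries. Calls in the licensing and fork roles were all lower (3 of 10 and 2 of 5 in each line). With GC and length terms removed this one-sidedness of the licensing genes did not hold: Cdt1 (0.23), Mcm2 (0.17) and Mcm3 (0.14) were called higher in Arf-B and only Cdc45 lower, and in Arf-C Cdt1 (0.20) and Mcm3 (0.14) higher and only Mcm7 lower, while the fork role kept 2 lower calls in each line. The whole split was then 18 higher and 3 lower for Arf-B, and for Arf-C 16 and 4. Calls in the cyclin, kinase and checkpoint role were higher for 5 of 8 in each line, with 1 lower in Arf-C, and those in the mitotic machinery role were higher for 7 of 10 in each, with 1 lower in Arf-C. The median member differed by 0.08 and 0.05, beside 0.00 for all tested genes in each. The lists of other genes were mixed. Of 22 kinetochore and checkpoint genes, Arf-B had 15 higher and 2 lower, and Arf-C 16 and 2. Of 22 spindle motor, cytokinesis and condensin genes, Arf-B had 13 higher and 2 lower, and Arf-C 11 and 2. Of 19 entry and exit regulators the counts were 6 and 4, then 9 and 4, with Pttg1 (securin) at -1.10 and -0.95. Polymerase, clamp loader and fork genes (24) had 3 higher and 6 lower, then 2 and 10, and origin genes (17) had 6 and 2, then 6 and 3. Among the kinetochore and checkpoint genes, Bub1b, a checkpoint kinase, was lower at day 0, at -0.56 and -0.65. At day 8 Bub1b was not called in either line (-0.10 and -0.07).

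**Figure D4:**
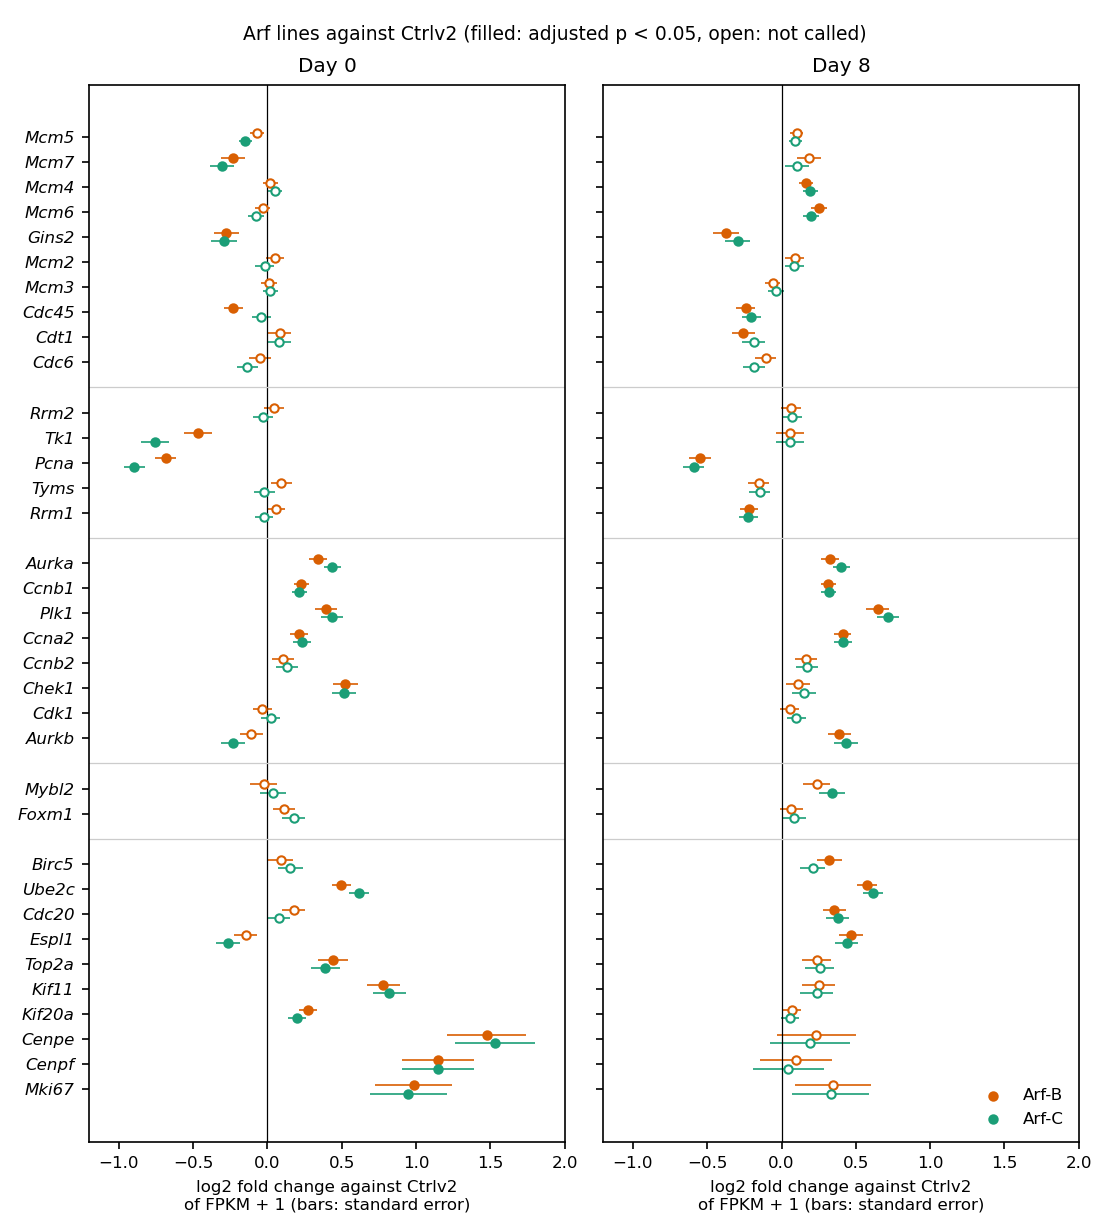
Log2 fold change of FPKM + 1 of Arf-B and Arf-C against Ctrlv2 (x axis, bars are standard errors) for the 35 members (y axis, ordered as by day change), at day 0 (left) and day 8 (right); filled points passed an adjusted p of 0.05. Pcna lies left of 0 on both days and Plk1 and Ube2c right of it, while Cenpe, Cenpf and Mki67 lie far right at day 0 and near 0 at day 8.

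Pcna was the member furthest below Ctrlv2 on both days. It lies on chromosome 2 from 132249162 to 132253314 (mm10, minus strand). Its day 0 values were 250, 257 and 250 FPKM in Ctrlv2, 142, 158 and 171 for Arf-B, while Arf-C stood at 125, 150 and 132, with no overlap between Ctrlv2 and either line. The log2 differences were -0.69 (SE 0.072, adjusted p = 1.98e-06) and -0.90 (adjusted p = 9.92e-08). At day 8 Pcna was at 117, 115 and 111 FPKM in Ctrlv2, at 78.1, 79.7 and 75.5 in Arf-B and at 74.0, 72.9 and 79.6 in Arf-C (log2 -0.55 and -0.59, adjusted p = 2.7e-05 and 1.27e-05). Its neighbours lay low too. Over 203 other genes of chromosome 2 between 115 and 145 Mb with a mean of at least 1 FPKM, the median difference from Ctrlv2 in Arf-B was -0.40 at day 0 and -0.45 at day 8, and in Arf-C -0.38 and -0.44, with 128 and 139 of them called lower in Arf-B (119 and 139 for Arf-C). Within 5 Mb of Pcna, 74 genes had medians of -0.422 and -0.481 at day 0 in Arf-B and Arf-C, and of -0.445 and -0.425 at day 8. Around the other 34 members, medians over genes within 5 Mb lay between -0.19 and 0.24. The highest was around Ccnb1 at day 0, where 52 neighbours had medians of 0.22 and 0.24 in Arf-B and Arf-C, with 23 and 25 called higher, about the size of the difference of Ccnb1 itself (0.23 and 0.22). At day 8 those neighbours were at -0.02 and -0.03 while Ccnb1 was at 0.31 and 0.32. Whether Pcna or Ccnb1 differs for the same reason as its neighbours was not tested.

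Tk1 was at 13.8, 11.6 and 13.6 FPKM in Ctrlv2 at day 0, at 8.76, 8.83 and 9.75 in Arf-B and at 6.68, 8.15 and 7.0 in Arf-C. Every Ctrlv2 library was above every Arf library (log2 -0.47 and -0.76, adjusted p = 0.001 and 1.09e-05). At day 8 the 3 lines overlapped, at 4.18 to 5.14, 4.65 to 5.59 and 4.55 to 5.35 FPKM. Among the licensing genes, Gins2 differed by -0.28 and -0.29 and Mcm7 by -0.23 and -0.31 at day 0, and the Gins2 differences and that of Mcm7 in Arf-B depended on single libraries. Gins2 was not called without Ctrlv2 replicate 1 (adjusted p = 0.0784 and 0.0554), and the Arf-B difference of Mcm7 was not called without Ctrlv2 replicate 1 (0.136) or 3 (0.0884) or Arf-B replicate 1 (0.104) or 2 (0.0647). Gins2 was also not called without replicate 1 of the Arf line itself (0.0502 and 0.0549), and with GC and length terms removed neither Gins2 (0.154 and 0.0878) nor Mcm7 in Arf-B (0.261) was. Cdc45 was lower in Arf-B (log2 -0.23, adjusted p = 0.00869), while in Arf-C the Cdc45 difference was -0.04 (0.658). Mcm5 (-0.15), Aurkb (-0.23) and Espl1 (-0.27) were called lower in Arf-C, and in Arf-B Mcm5 (-0.07), Aurkb (-0.11) and Espl1 (-0.15) were not called. Without Ctrlv2 replicate 1 none of Mcm5, Aurkb and Espl1 was called (adjusted p = 0.091, 0.0636 and 0.0623). Aurkb was also not called without Ctrlv2 replicate 2 (0.052) or 3 (0.0683) or Arf-C replicate 1 (0.0761) or 3 (0.138), nor was Espl1 without Arf-C replicate 2 (0.0592) or 3 (0.0567). With GC and length terms removed, Mcm5 (-0.04, adjusted p = 0.477) and Aurkb (-0.10, 0.279) were not called in Arf-C, and Espl1 was (-0.18, 0.023).

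Plk1 and Ube2c stood above Ctrlv2 on both days. Plk1 was at 67.4, 63.2 and 59.6 FPKM at day 0 in Ctrlv2, at 82.1, 84.7 and 83.5 in Arf-B and at 86.3, 85.7 and 85.8 in Arf-C (log2 0.39 and 0.43, adjusted p = 0.000691 and 0.000264). On day 8 Plk1 stood at 29.9, 24.1 and 23.1, then 41.6, 39.9 and 40.2, then 44.7, 43.1 and 40.3 (log2 0.65 and 0.72, adjusted p = 9.39e-06 and 3.17e-06). All Arf libraries were above all Ctrlv2 libraries of the same day. Ube2c was at 62.2, 57.6 and 64.1 FPKM in Ctrlv2 at day 0, at 82.9, 96.8 and 81.6 in Arf-B and at 92.0, 99.3 and 91.7 in Arf-C (log2 0.50 and 0.61, adjusted p = 2.23e-05 and 2.27e-06). Its day 8 values were 24.0, 23.2 and 24.6, then 36.0, 34.6 and 37.9, then 36.2, 37.2 and 38.3 (log2 0.57 and 0.62, adjusted p = 7.33e-06 and 3.41e-06), again without overlap. Aurka was higher by 0.34 and 0.44 at day 0 and by 0.33 and 0.40 at day 8, Ccna2 by 0.21 and 0.23 and then by 0.41 and 0.41, and Ccnb1 by 0.23 and 0.22 and then by 0.31 and 0.32. With GC and length terms removed, the Ccnb1 difference of Arf-C at day 0 missed the threshold (adjusted p = 0.0517).

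The members furthest above Ctrlv2 at day 0 were those with scattered Ctrlv2 libraries. Cenpe was at 18.3, 18.1 and 18.2 FPKM in Arf-B and, for Arf-C, at 20.5, 16.6 and 20.0, above the highest Ctrlv2 library at 11.6 (log2 1.47 and 1.53, SE 0.27, adjusted p = 0.000494 and 0.000322). Cenpf was at 10.2, 10.3 and 10.4 and at 11.2, 8.96 and 10.9, above 7.56 (log2 1.15 and 1.15, adjusted p = 0.00157 and 0.00137). Mki67 was at 27.9, 24.6 and 26.5 and at 29.3, 20.8 and 27.5, and 1 Arf-C library lay below the highest Ctrlv2 library (log2 0.98 and 0.95, adjusted p = 0.00705 and 0.00811). Kif11, Top2a and Chek1, whose kinase guards replication forks, were higher by 0.78, 0.44 and 0.52 in Arf-B and by 0.82, 0.39 and 0.51 in Arf-C. With the GC and length terms removed these differences were smaller but still called: Cenpe 1.30 and 1.36, Cenpf 0.94 and 0.95, Mki67 0.90 and 0.87, Kif11 0.63 and 0.66, Chek1 0.35 and 0.33, and Top2a 0.32 and 0.26. Each of these 6 members was also called in all 6 fits that left out 1 library, although the Mki67 differences fell to 0.59 and 0.55 in the lowest of those fits, the one without Ctrlv2 replicate 1. Fitted on the groups of the comparison alone, Mki67 was not called (adjusted p = 0.0722 and 0.0797).

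At day 8, 11 members were higher and 5 lower in Arf-B than in Ctrlv2, where 16.3% and 16.9% of all genes were called. In Arf-C 11 were higher and 4 lower, with 16.8% of all genes called in each direction. The higher members are a larger share than among all genes, and the lower ones are not. The splits without GC and length terms were 16 to 4 for Arf-B and, for Arf-C, 16 to 5. Scaled to the same FPKM sum, which moves the median of all genes from 0.01 to 0.10 and 0.07, the splits were 19 to 2 and 17 to 1. Of the roles, 5 of 8 cyclin, kinase and checkpoint genes were higher in each line, 4 and 3 of 10 genes of mitotic machinery and exit, and 2 of 10 licensing genes, the helicase subunits Mcm6 (log2 0.25 and 0.20) and Mcm4 (0.17 and 0.19). The Mcm4 call in Arf-B was lost without its own replicate 1 (adjusted p = 0.0854) or 3 (0.0552) or Ctrlv2 replicate 3 (0.0519). Espl1 was higher by 0.47 and 0.44, Aurkb by 0.39 and 0.43 and Cdc20 by 0.36 and 0.38. Mybl2 was called in Arf-C (0.34, adjusted p = 0.00775) and missed the threshold in Arf-B (0.24, 0.0534), except without Arf-B replicate 1 (0.29, 0.0354). Birc5 was called in Arf-B (0.32, adjusted p = 0.00689) and not in Arf-C (0.21, 0.0626). The lower calls were in the licensing and fork roles. Gins2 was at 10.8, 8.85 and 8.58 FPKM in Ctrlv2, at 7.03, 7.50 and 6.50 in Arf-B and at 7.51, 6.85 and 8.03 in Arf-C, without overlap (log2 -0.37 and -0.29, adjusted p = 0.00305 and 0.0141). The Arf-C difference of Gins2 was not called without Ctrlv2 replicate 1 (0.0746) or Arf-C replicate 2 (0.0693). Rrm1 was lower in each line (log2 -0.22 and -0.22, adjusted p = 0.0132 and 0.0113), calls that did not stand without Ctrlv2 replicate 1 (0.0616 and 0.0544) and, in Arf-B, without its own replicate 3 (0.0644). Removing GC and length terms also lost the Rrm1 call in Arf-B (-0.20, 0.0558).

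Beside these day 8 differences stand the stem cell markers, whose sum was higher in both Arf lines, and the primitive and parietal endoderm markers, whose sum was lower. The primitive and parietal endoderm sum was already lower at day 0. It was then 41.2 to 47.2 FPKM in Ctrlv2, 14 to 18.6 in Arf-B and 16.4 to 23.4 in Arf-C. Most of that day 0 sum was Lama1, at means of 36.8, 13.7 and 16.6. Dab2 (0.207, 0.232 and 0.298) and Pdgfra (0.205, 0.227 and 0.284) were not lower in the Arf lines at day 0. At day 8 the gap lay mostly in Lama1 (72.5, 4.71 and 4.82) and Col4a1 (72.9, 12.9 and 15.7). Pdgfra differed little at day 8 (1.88, 1.57 and 1.57). All 8 genes of an undifferentiated-cell list were higher in each Arf line at day 8, with medians of 1.98 and 1.90 (log2). That list shares genes with the stem cell markers, among them Pou5f1 and Nanog, so it is not a separate result. The part of cells that had not differentiated in the members' differences was not tested. At day 0 the same 8 genes had medians of -0.13 and -0.05, with at most 1 of the 8 called in either line. Other genes at day 8 were mixed: of 19 entry and exit regulators Arf-B had 6 higher and 8 lower, and Arf-C 6 and 7, and of 22 spindle motor, cytokinesis and condensin genes 11 and 1, then 12 and 1. Of 22 kinetochore and checkpoint genes the counts were 7 and 2, then 6 and 2. Polymerase, clamp loader and fork genes (24) had 3 and 5, then 2 and 4, and origin genes (17) had 2 and 4, then 2 and 5. Of all genes, 16.3% were called higher and 16.9% lower in Arf-B, and 16.8% each way in Arf-C.

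**Figure D5:**
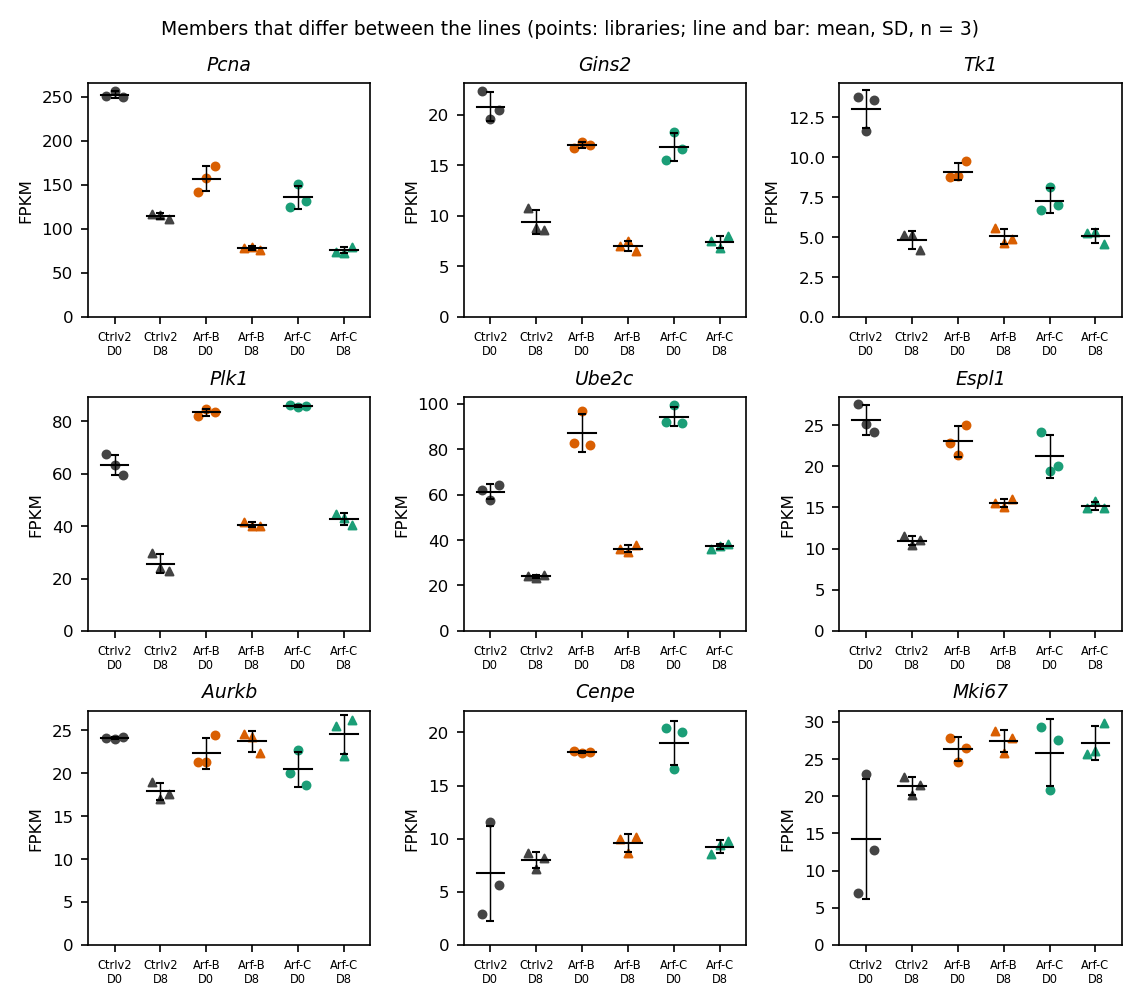
FPKM (y axis, from 0) in each of the 18 libraries (points) of 9 members, by line and day (x axis, D0 and D8 for days 0 and 8), with the mean and SD of 3 libraries. Pcna is lower in the Arf lines than in Ctrlv2 on both days, Tk1 separates at day 0 and overlaps at day 8, Espl1 and Aurkb separate at day 8, and Cenpe and Mki67 show the wide spread of the Ctrlv2 day 0 libraries.

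Between Arf-B and Arf-C no member passed the test at either day: 0 higher and 0 lower at day 0, where 0.105% and 0.238% of all genes were called, and 0 and 0 at day 8, where the shares were 0.0349% and 0.0233%. With limma at an unadjusted p under 0.05 there were 2 members higher (Pcna and Tk1) and 1 lower (Cdc45) in Arf-B at day 0 and 0 at day 8, and limma-voom called 0. The fitted differences ran from -0.19 (Cdc45) to 0.29 (Tk1) at day 0 and from -0.10 (Mybl2) to 0.11 (Birc5) at day 8.

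The size of the day response differed between lines for some members, tested as the difference of differences. In Arf-B the response was higher than in Ctrlv2 for 5 members (14.3%) and lower for 6 (17.1%), beside 17.5% and 16.1% of all genes. In Arf-C it was higher for 9 (25.7%) and lower for 4 (11.4%), beside 19.4% and 18.9% of all genes. Leaving out 1 library gave 6 to 9 higher and 3 to 5 lower members in Arf-C. No departure from the background is read from these counts. Scaled to the same sum, the Arf-B split was 12 to 2. Espl1 was at 27.6, 25.1 and 24.2 FPKM at day 0 and 11.5, 10.4 and 11.0 at day 8 in Ctrlv2, at 22.8, 21.3 and 25.1 and then 15.5, 15.1 and 16 in Arf-B, and at 24.2, 19.4 and 20.0 and then 15.0, 15.7 and 14.9 in Arf-C. It fell in every line, and by less in the Arf lines (difference 0.62 and 0.70, adjusted p = 0.000561 and 0.000152). Tk1 also fell by less (difference 0.53 and 0.82, adjusted p = 0.00681 and 0.000206), from a lower start, and Aurkb did not fall (difference 0.50 and 0.67, adjusted p = 0.00313 and 0.000286). Espl1, Tk1 and Aurkb were called in all 12 fits that left out 1 library and with GC and length terms removed.

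Among the responses that were more negative in the Arf lines, those of Cenpe, Cenpf and Kif11 involve members that scattered among the Ctrlv2 day 0 libraries. Cenpe differed by -1.24 and -1.34 (adjusted p = 0.0204 and 0.0117), Cenpf by -1.05 and -1.10 (0.0282 and 0.0196) and Kif11 by -0.53 and -0.58 (0.0166 and 0.00807). With GC and length terms removed they differed by -1.07 and -1.17 (Cenpe), -0.87 and -0.93 (Cenpf) and -0.36 and -0.40 (Kif11), all still called. Leaving out single libraries lost the Arf-B call of Cenpf in 4 of 12 fits: without Ctrlv2 replicate 3 of day 0 (adjusted p = 0.0588), Ctrlv2 replicate 1 of day 8 (0.0635), Arf-B replicate 2 of day 0 (0.0505) or Arf-B replicate 2 of day 8 (0.0638). Chek1 differed by -0.41 and -0.37 (adjusted p = 0.0122 and 0.0205), and neither Chek1 difference was called with the terms removed (0.0561 and 0.208), nor that in Arf-C without Arf-C replicate 1 of day 8 (0.0512). Mki67 differed by -0.64 and -0.62 and was not called (0.201 and 0.206), except without Ctrlv2 day 0 replicate 2 (-1.03 and -1.01, adjusted p = 0.0035 and 0.00359).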

How the data were processed

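Polyadenylated RNA of 18 libraries was sequenced, and the authors deposited 1 table of FPKM values with gene coordinates and gene lengths. The submitters' processing notes name HISAT2, featureCounts, DESeq2 and mm10, with no roles given. Versions and the strand setting are not given in the sources used here. Multiplying the deposited FPKM by gene length and dividing by 1 step fitted per library gave whole reads (tolerance 0.001 reads) for 100% of values. These reads numbered 10432590 to 33311220 per library, so sampling error is small for the members and largest for Tk1. The library size implied by the step was not the reads on genes. It was 29222900 for 30267844 reads in Ctrlv2 day 0 replicate 1, and 24250000 for 22222425 reads in Arf-B day 8 replicate 1. FPKM sums ran from 294727 to 363377 per library.

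Groups came from the sample titles. The main test was limma 3.58.1 (R 4.3.3, statmod 1.5.0) on log2(FPKM + 1) for the 17200 genes that reached 0.5 FPKM in 3 or more libraries, with 1 coefficient per group over all 18 libraries, empirical Bayes moderation with trend and robust settings, and Benjamini-Hochberg adjustment over all genes tested. Calls were made at an adjusted p under 0.05, and 11 comparisons were made. Fold changes on this scale understate those of low genes. On simulated reads, the test recovered 94% of 2-fold and 64% of 1.5-fold changes for the day 8 comparison in Ctrlv2 (100 genes each, 16230 genes tested, 8.14% of calls on unchanged genes) and 96% and 83% for Arf-B against Ctrlv2 at day 0 (16235 genes, 1.1%). Every simulated gene had the same dispersion (0.00742), and few genes were changed. These rates therefore do not cover members that scattered more, such as Cenpe, Cenpf and Mki67, or the many changed genes of the real comparisons.

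The 35 members and the lists of other genes were chosen with earlier results of these data known, so no list is independent evidence of its direction. All members may be named, and values by library were given for the members with the largest and smallest day change of each role and those that differed most between lines. Promoters were chosen for printing by their motifs and then by day change, limited to windows with no annotated GENCODE vM21 exon. Transcript GC content and length came from the same annotation and covered 99.88% of tested genes. Alternatives were another pseudocount (0.1), other filters, same-sum and median-ratio scaling, limma-voom on recovered reads, thinning to 10432590 reads, fits on the compared groups alone, the replicate number as a block, each library left out, and smooth GC and length terms (splines with 4 degrees of freedom) removed from each library, the last chosen after seeing the data. Figures were drawn with matplotlib 3.10.9 under Python 3.11.15.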

Additional observations from a re-analysis of the deposited data

Results flagged for a closer look

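These members responded differently to the 8 days in an Arf line than in Ctrlv2, by limma's test of the difference between the 2 day responses (log2, Arf line minus Ctrlv2). Both lines were set against the same 6 Ctrlv2 libraries, so their values are given side by side and do not support each other.

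The response was more positive in an Arf line than in Ctrlv2 for these members. Espl1 differed by 0.62 in Arf-B and 0.70 in Arf-C, Tk1 by 0.53 and 0.82, Aurkb by 0.50 and 0.67, Mcm7 by 0.42 and 0.41, and Mcm6 by 0.29 and 0.28. In Arf-C, Mcm5 (0.24), Pcna (0.31), Plk1 (0.28) and Cdc20 (0.30) were called as well. Plk1 (adjusted p = 0.0486) and Cdc20 (0.039) lay close to the threshold: of 12 fits that left out 1 library, Plk1 was called in 3 and Cdc20 in 5, with the highest adjusted p without Ctrlv2 day 8 replicate 3 (0.128, Plk1) and without Ctrlv2 day 0 replicate 1 (0.1, Cdc20), and with GC and length terms removed neither was called (0.278 and 0.124). Pcna in Arf-C was not called without Arf-C replicate 1 (0.067) or 3 (0.06) of day 0, Arf-C replicate 3 of day 8 (0.0673) or Ctrlv2 replicate 3 of day 8 (0.0586). Mcm5 was not called with GC and length terms removed (0.0571).

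The response was more negative for Cenpe (-1.24 and -1.34), Cenpf (-1.05 and -1.10), Kif11 (-0.53 and -0.58) and Chek1 (-0.41 and -0.37), and in Arf-B for Cdt1 (-0.34) and Rrm1 (-0.27). Chek1 in Arf-C was not called without Arf-C replicate 1 of day 8 (adjusted p = 0.0512). Cdt1 was not called without Arf-B day 0 replicate 2 (0.0748), Arf-B day 8 replicate 1 (0.0668), Ctrlv2 day 0 replicate 2 (0.0668) or Ctrlv2 day 8 replicate 3 (0.0594). Rrm1 was not called without Arf-B day 0 replicate 3 (0.0603), Arf-B day 8 replicate 2 (0.0559) or 3 (0.0657), Ctrlv2 day 0 replicate 3 (0.0616) or Ctrlv2 day 8 replicate 1 (0.0627), nor with GC and length terms removed (0.379).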

How the results depend on the processing

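No called value changed direction under any alternative. Of the values for single members, 107 changed sign, 15 of them with GC and length terms removed, and none of these was called in either fit. For single members, 5998 values kept their side of the threshold under the alternatives planned first, 124 lost a call and 73 gained one, and with GC and length terms removed 336 kept it, 15 lost and 34 gained. Scaling to the same FPKM sum gave 19 higher and 2 lower members for Arf-B at day 8, 17 and 1 for Arf-C at day 8, 12 and 2 for the difference in day response of Arf-B, and 1 higher for the day response of Arf-B. For that difference in Arf-B, thinned reads gave 8 higher. The 2 members called higher with time in Ctrlv2 were 1 with no filter, 0 in a fit of the compared groups alone and 0 with GC and length terms removed. The lower members at day 0 were 3 (Arf-B) and 4 (Arf-C) in fits of the compared groups alone, and 3 and 4 with GC and length terms removed, against 5 and 7. With those terms removed the higher members were 18 and 16 at day 0 and 16 and 16 at day 8, against 12 and 12 and 11 and 11.

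Leaving out 1 library gave 0 to 3 higher and 30 to 31 lower members with time in Ctrlv2, 0 and 32 in Arf-B, and 0 to 1 and 32 in Arf-C. Against Ctrlv2 at day 0 it gave 12 to 13 higher and 3 to 5 lower in Arf-B and 11 to 13 and 3 to 7 in Arf-C, and at day 8 10 to 13 and 4 to 5 in Arf-B and 11 to 14 and 2 to 4 in Arf-C. The differences in day response numbered 5 to 7 higher and 4 to 7 lower in Arf-B and 6 to 9 and 3 to 5 in Arf-C, and Arf-B against Arf-C stayed at 0.

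With the replicate number as a block, no count or member call changed, for example 2 higher and 31 lower with time in Ctrlv2 in both fits. Taken over all groups, same-numbered libraries did not deviate together. Of 45 pairs 7 had a correlation over 0.1, from -0.389 to 0.398, with a median of -0.011. Between Arf-B and Arf-C, replicates 1 to 3 had correlations of 0.398, 0.2 and -0.031 at day 0. At day 8 these were 0.175, -0.086 and 0.289. Deviations within groups of 3 cannot show whether the samples were paired. Depth limits Tk1, Gins2 and Chek1 most at day 8, where libraries were shallower than at day 0.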
